A study of Mus musculus with 12 samples.

Results

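The laminins, the integrins and their close partners were examined in allograft tumors with and without knockdown of *Filip1l*. Members were taken by gene symbol alone, as every laminin chain, every integrin α and β subunit, both nidogens (*Nid1*, *Nid2*), perlecan (*Hspg2*) and fibronectin (*Fn1*). The rule gave 39 genes of the 15687 genes measured, namely 10 laminin chains, 17 integrin α subunits, 8 integrin β subunits and the 4 partners. It used no measured value. *Lamc3* and *Itgad*, which the rule also matches in the annotation, were not analysed here.

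All 12 tumors grew from mTC11, a mouse lung cancer cell line, and were collected on day 24. The cells were injected under the skin of male C57BL6/J mice at 8 weeks of age. The 6 CTL tumors, labelled WT, came from cells with a scrambled shRNA, and the 6 *Filip1l*-knockdown tumors (labelled Filip1l KD) from cells with an shRNA against *Filip1l*. Both kinds of cells were mixed clones under puromycin selection, the sources do not state which of the available *Filip1l* constructs the sequenced tumors carried, and both kinds grew in hosts with their own immune system and stroma. Tumor cells and host cells are both mouse, so their RNA cannot be told apart by sequence.

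Laminins are heterotrimers of an α, a β and a γ chain that polymerise into the sheet of the basement membrane, where nidogens and perlecan link them to type IV collagen. Fibronectin is a matrix glycoprotein assembled mainly outside that sheet. Integrins are αβ heterodimers that hold cells to these proteins. The subunit pair decides the ligand, with a group that binds laminin, a group that binds collagen, a group that reads the RGD motif of fibronectin and related proteins, and a group largely confined to leukocytes. In epithelium and carcinoma, laminin with the chains encoded by *Lama3* and *Lamb3* is anchored by the integrin of *Itga6* and *Itgb4*.

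The upstream sequences of 5 members follow, chosen because these genes had separated or nearly separated levels between the groups and stand for both directions of change: *Lamb1*, *Itgb5* and *Itgb1* were lower and *Lamb3* and *Itgb7* higher in *Filip1l*-knockdown tumors. Each is read 5′ to 3′ on the strand of the gene from RefSeq on GRCm38.p6, within the 250 bases before a RefSeq start, and holds no annotated exon base. The stretch of *Lamb3* lies inside the annotated span of its gene (193207699 to 193343878). Capitals mark the GC box, GGGCGG on either strand, and in *Itgb5* also the E-box CACCTG.
*Lamb1*, chr12:31265043-31265233, + strand: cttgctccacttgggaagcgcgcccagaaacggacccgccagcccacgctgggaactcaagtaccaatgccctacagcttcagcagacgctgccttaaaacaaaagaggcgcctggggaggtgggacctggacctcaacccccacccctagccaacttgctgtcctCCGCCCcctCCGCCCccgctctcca
*Itgb5*, chr16:33829415-33829664, + strand: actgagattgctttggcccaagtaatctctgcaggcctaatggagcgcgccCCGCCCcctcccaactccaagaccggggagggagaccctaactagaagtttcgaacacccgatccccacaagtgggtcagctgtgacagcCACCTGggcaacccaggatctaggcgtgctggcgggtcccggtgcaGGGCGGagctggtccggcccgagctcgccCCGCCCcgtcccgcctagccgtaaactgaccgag
*Itgb1*, chr8:128685404-128685653, + strand: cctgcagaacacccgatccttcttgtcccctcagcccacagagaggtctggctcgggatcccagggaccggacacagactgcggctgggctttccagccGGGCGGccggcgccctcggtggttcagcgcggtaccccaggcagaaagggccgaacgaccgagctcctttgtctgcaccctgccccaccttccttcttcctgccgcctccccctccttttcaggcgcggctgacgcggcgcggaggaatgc
*Lamb3*, chr1:193301744-193301992, + strand: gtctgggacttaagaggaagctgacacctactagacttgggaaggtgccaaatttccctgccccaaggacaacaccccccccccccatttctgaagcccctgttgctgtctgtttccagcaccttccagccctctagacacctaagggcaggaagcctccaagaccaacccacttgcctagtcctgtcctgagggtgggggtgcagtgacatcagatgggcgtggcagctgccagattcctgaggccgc
*Itgb7*, chr15:102231945-102232185, - strand: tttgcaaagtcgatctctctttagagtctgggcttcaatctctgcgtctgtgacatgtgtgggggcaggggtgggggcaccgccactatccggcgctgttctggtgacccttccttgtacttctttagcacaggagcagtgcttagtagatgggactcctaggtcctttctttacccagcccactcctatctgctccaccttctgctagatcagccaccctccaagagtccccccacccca

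The printed stretches of the lower genes held 2 GC boxes (*Lamb1*), 3 (*Itgb5*) and 1 (*Itgb1*), and those of *Lamb3* and *Itgb7* held 0. Of the 39 members, 25 had an upstream window in the RefSeq table. The GC box was present in 7 of the 7 members with a window that were called lower (*Hspg2*, *Itga3*, *Itga5*, *Itgb1*, *Itgb5*, *Lama5*, *Lamb1*), in 0 of the 5 called higher (*Itga1*, *Itga2*, *Itgav*, *Itgb7*, *Lamb3*) and in 3 of the 13 not called (*Itga4*, *Itgam*, *Nid1*). Over all measured genes with a window, it was present in 67.8% of those called lower, 58.4% of those called higher and 58.8% of those not called, and in 32.7% of all 32851 RefSeq windows of that length. This is a description of letters in a window and was not tested. The 25 members had 28 windows. Among these, the AP-1 motif TGANTCA, searched on both strands like the others, was found in 1 (*Itgax*, 3.57%) against 6.75% of all windows. The TATA box TATAAA was found in 0 of the 28 against 12.4%. The E-box was found in 8 of the 28 (28.6%), against 17.2% of all windows. None of these motifs contains another.

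Levels are the normalized counts of the deposited table, reads per gene divided by a size factor of each tumor, which compare the same gene between tumors. Reads on listed genes ranged from 17834745 to 29502069 in CTL tumors and from 25460564 to 32419578 in knockdown tumors. The groups were set against each other with limma on log2 of the normalized count plus 1, and a gene was called at a Benjamini-Hochberg adjusted p under 0.05 over all 15687 genes. The targeted gene was lower by 0.26 on the log2 scale: *Filip1l* lay between 1983 and 2542 normalized counts (median 2354) in the CTL group and between 1670 and 2184 in knockdown tumors (median 1935), with overlapping ranges (limma log2 fold change -0.26, SE 0.07, adjusted p = 0.00998). Of the 5 lung epithelial markers measured, *Nkx2-1* and *Sftpc* had means under 50 normalized counts, *Napsa* (log2 fold change 0.88) and *Sftpb* (2.80) were called higher in knockdown tumors and *Foxj1* (-1.85) lower. The ranges of *Sftpb* overlapped (0.947 to 94.1 in CTL, 17.6 to 760 in knockdown). Its call (limma adjusted p = 0.0463) was not kept in every leave-one-out fit (adjusted p up to 0.106). All 4 of the intestinal epithelial markers measured were called higher in knockdown tumors (summed level 11822 to 17207 in CTL, 44487 to 95923 in knockdown). Knockdown tumor 1 stood apart from the rest of its group. It had the group's highest summed levels of macrophage (29736), neutrophil (3219) and fibroblast (182376) markers and the lowest of simple epithelial markers (188323). The largest part of the neutrophil sum was *Mmp9* (means of 1076 in CTL and 765 in knockdown tumors), which was not called in the main fit. Several results, but not all, are therefore given with and without knockdown tumor 1.

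Across the 39 members, 11 were called higher in *Filip1l*-knockdown tumors (28.2%), 10 were called lower (25.6%) and 18 were not called. The background over all genes was 21.1% higher and 20.7% lower, so the member shares lay near or slightly above it. With an absolute log2 fold change over 1 as a second threshold, 4 members were higher (among them *Lama3*, *Itga7* and *Itgb7*) against a background of 6.2%, and 2 were lower (*Lamb1* and *Fn1*) against 3.97%. The 6 tumors of each group did not overlap for 5 members that were higher (among them *Lama3*, *Itga7*, *Itgb4* and *Itgb7*), where the background is 10.6%, and for 4 that were lower (*Lamb1*, *Itga5*, *Itgb1*, *Itgb5*), where it is 10.9%. The median log2 fold change was 0.07 over the members and 0.008 over all genes. Every member passed the filter on low values, a mean of at least 5 normalized counts, which removed 0 genes of the table.

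**Figure D1:**
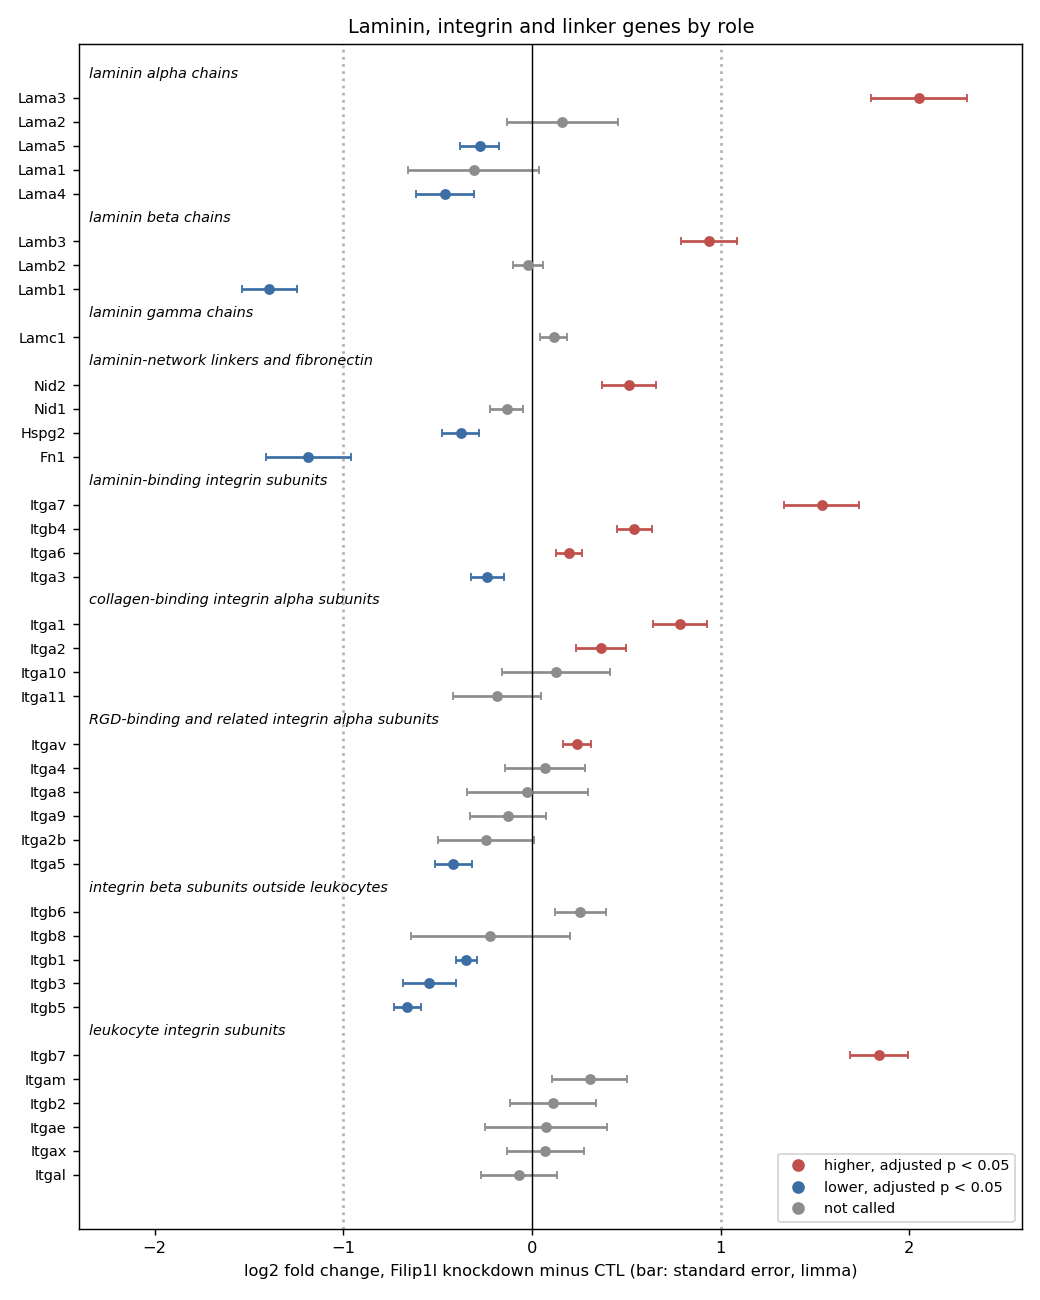
Log2 fold change of the members described in the text (*Filip1l* knockdown minus CTL, x axis) with its limma standard error (SE) as a bar, grouped by role along the y axis, red for genes called higher, blue for genes called lower and grey for genes not called. The dotted lines mark a log2 fold change of 1 in either direction, and *Lama3* (2.05) and *Lamb1* (-1.39) lie at the ends.

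The epithelial laminin chains *Lama3* and *Lamb3* both rose. *Lama3* (ENSMUSG00000024421; chromosome 18, 12333819 to 12583013 on GRCm38), an α chain, ranged from 564 to 2285 normalized counts in CTL tumors with a median of 1227, and from 3355 to 7178 in knockdown tumors with a median of 5024. Every knockdown tumor lay above every CTL tumor, and the rise was 4.14-fold (log2 fold change 2.05, SE 0.26, limma adjusted p = 2.34e-05). *Lamb3*, its β partner, spanned 3062 to 5173 normalized counts in CTL tumors (median 3723) and 5121 to 10099 in knockdown tumors (median 7637). Its ranges touched, since knockdown tumor 1 (5121) lay just under CTL tumor 5 (5173), and the rise was 1.91-fold (log2 fold change 0.94, SE 0.15, limma adjusted p = 1.78e-04). In both groups the tumors kept much the same place for both chains: CTL tumor 3 was the lowest and CTL tumor 5 the highest CTL tumor, and knockdown tumor 1 the lowest and knockdown tumor 5 the highest knockdown tumor, for each of them.

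Markers of simple epithelium were also higher in knockdown tumors. Their summed level was 135208 to 175847 normalized counts in CTL tumors and 188323 to 352179 in knockdown tumors, with knockdown tumor 1 again the lowest of its group. Within the CTL group the order was not that of the chains. CTL tumor 3, lowest for both chains, had a sum of 169571, and the lowest sum was that of CTL tumor 1. Of the 5 markers 4 rose (*Epcam*, *Krt8*, *Krt18* and *Krt19*) while *Cdh1* was not called (log2 fold change 0.01, limma adjusted p = 0.95). *Cdh1* lies on chromosome 8, where the median gene had a log2 difference of -0.187. With chromosome medians removed it was called higher (limma adjusted p = 0.0292). Of the basal and squamous markers 0 of 4 were called, *Trp63* and *Dsg3* had means under 50, and their sums overlapped (995 to 3854 in CTL, 1472 to 3703 in knockdown). In bulk tumors, a change in the number of cells that express a gene and a change in RNA per cell cannot be told apart. Without knockdown tumor 1 the log2 fold changes were 2.16 for *Lama3* and 1.05 for *Lamb3*.

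*Lamb1*, the β chain of the broadly expressed laminins, fell. Its level ran from 6478 to 8935 normalized counts in CTL tumors (median 7950.5) and from 1967 to 4155 in knockdown tumors (median 3070.1). No knockdown tumor reached the CTL range, and knockdown tumor 1 was the nearest to it. The mean was 7872 ± 990.4 in CTL and 3056 ± 737 in knockdown tumors (SD over 6 tumors each), a log2 fold change of -1.39 (SE 0.15, limma adjusted p = 4.89e-06). *Lamb2*, the other β chain of these laminins, was level at 6767 ± 914 and 6625 ± 363 normalized counts (SD over 6 tumors each), with a log2 fold change of -0.02 that did not pass the test (limma adjusted p = 0.864). The β chains therefore took 3 courses, *Lamb3* up, *Lamb1* down and *Lamb2* not called.

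The remaining chains moved less. *Lama5*, the α chain of most adult epithelial basement membranes, was lower with 15202 to 19353 normalized counts in CTL tumors (median 17731) and 11877 to 18323 in knockdown tumors (median 14578). Its ranges overlapped widely, and its call (log2 fold change -0.28, SE 0.10, limma adjusted p = 0.0427) was lost when replicate number entered as a block (adjusted p = 0.0639) and in 7 of the 12 leave-one-out fits. *Lama4*, the α chain of endothelial and mesenchymal laminins, was lower by 0.46 on the log2 scale (limma adjusted p = 0.0267), from a CTL median of 1235 to a knockdown median of 818, and knockdown tumor 1 (1379) lay inside the CTL range of 947 to 1492. Without that tumor the log2 fold change of *Lama4* was -0.59, and the call was lost in 5 of the 12 leave-one-out fits. *Lamc1*, the γ chain of the widely expressed trimers, was not called (median 11969 in CTL and 12920 in knockdown tumors, log2 fold change 0.11, limma adjusted p = 0.207). *Lama1* and *Lama2*, the α chains of early embryonic and of muscle basement membranes, were low, with medians of 137 and 100.3 normalized counts in CTL tumors and 109 and 125 in knockdown tumors, and were not called. *Lama1* was highest in knockdown tumor 1 (317), and its log2 fold change was -0.31 with that tumor and -0.61 without it. It was not called in either fit (limma adjusted p = 0.513 and 0.0659).

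**Figure D2:**
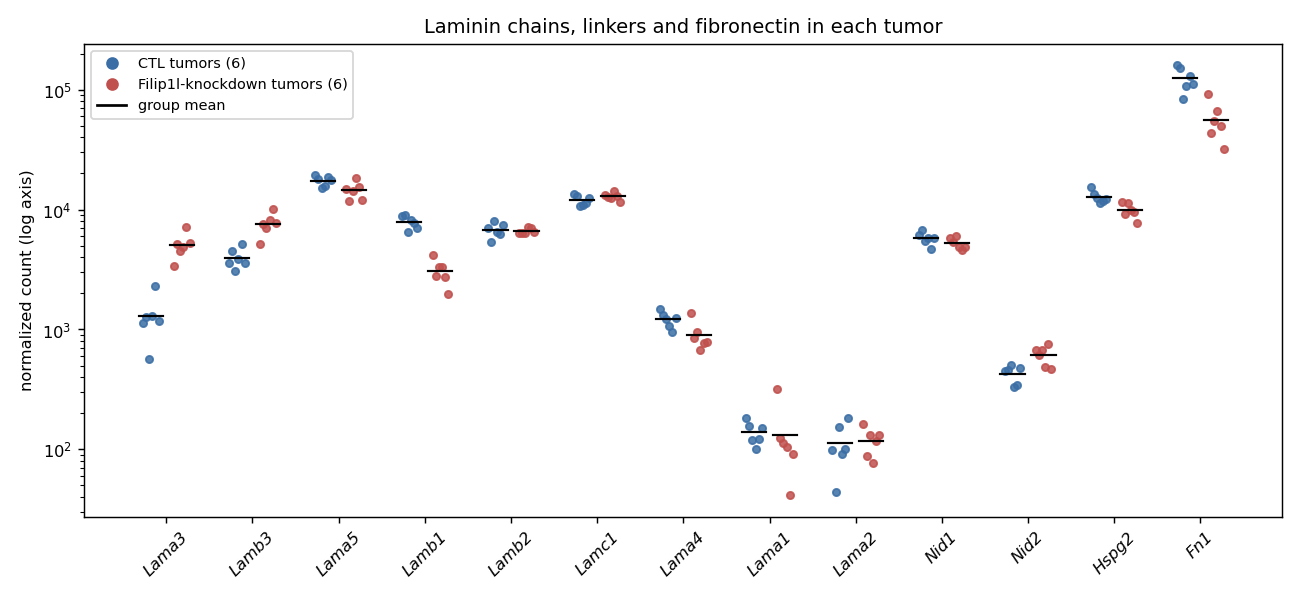
Normalized count (log axis) of laminin chains, *Nid1*, *Nid2*, *Hspg2* and *Fn1* in each tumor, with CTL tumors in blue, *Filip1l*-knockdown tumors in red and a black line at the mean of each group of 6. The groups separate for *Lama3* and *Lamb1*, touch for *Lamb3* (5121 in knockdown tumor 1, 5173 in CTL tumor 5) and overlap for the rest.

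Levels of different chains can be set side by side per kilobase of exon, a scale chosen after the values had been seen and reported here as a description with no test. On that scale *Lama3* made up 3.47% to 10.9% of the laminin α chains in CTL tumors (mean 6.65%) and 17.5% to 31.7% in knockdown tumors (mean 25.7%), while *Lama5* went from a mean of 86.4% to 69.0%. Neither range overlapped between the groups. Among the β chains, the mean share of *Lamb1* was 31.7% in CTL and 12.3% in knockdown tumors, that of *Lamb3* was 23.9% and 44.8%, and *Lamb2* held 44.5% and 42.9%. The size of the *Lamb1* difference depended on the length used. It was -19.4 percentage points here, -23.8 with the length of the longest transcript and -24.4 without a correction for length. The order of the laminin chains compared here by mean per-kilobase level in CTL tumors was *Lama5* (1529.9), *Lamc1* (1447), *Lamb2* (1113), *Lamb1* (794) and *Lamb3* (599), and *Lama3* came far below at 120 ± 52.0 (SD, n = 6). In knockdown tumors it was *Lamc1* (1563), *Lama5* (1272), *Lamb3* (1152), *Lamb2* (1089), *Lama3* (471) and *Lamb1* (308).

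**Figure D3:**
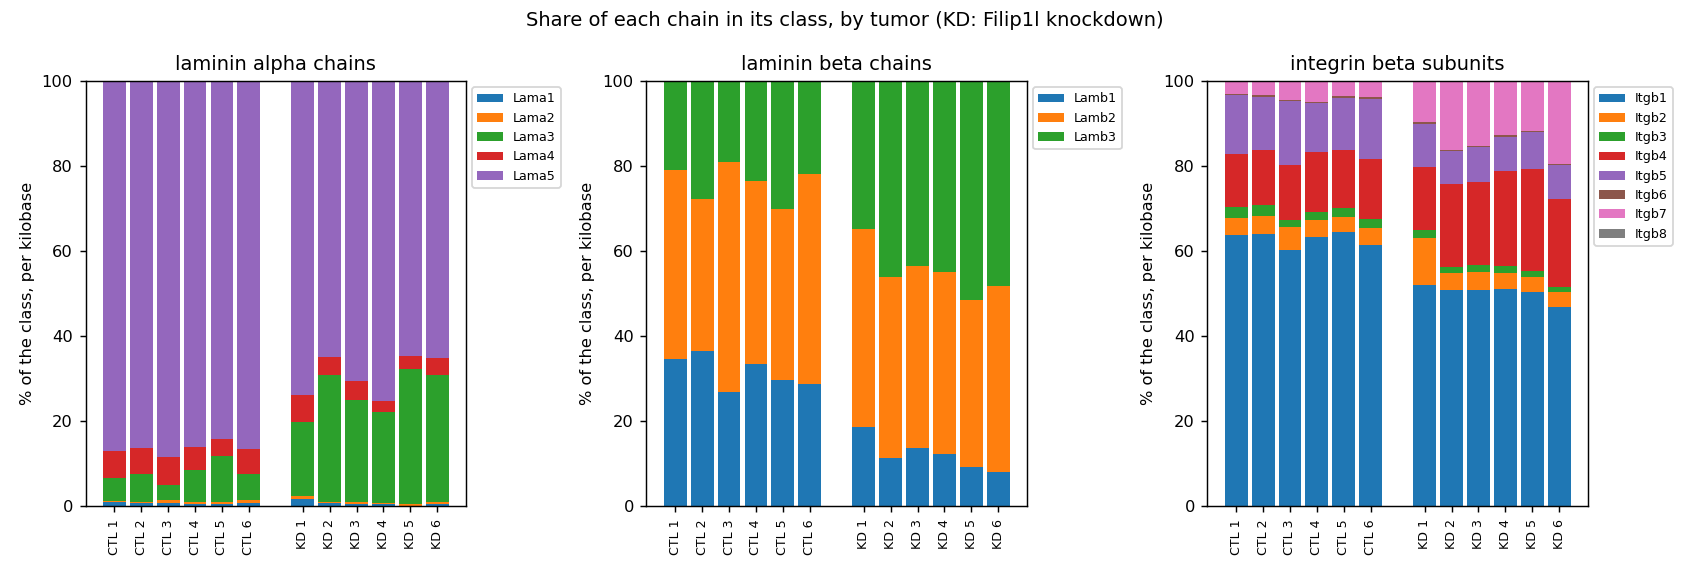
Share of each chain in its class, as % of the summed normalized count per kilobase of exon, in each of the 6 CTL and 6 *Filip1l*-knockdown (KD) tumors, for laminin α chains, laminin β chains and integrin β subunits. The means go from 6.65% to 25.7% for *Lama3*, from 31.7% to 12.3% for *Lamb1* and from 3.83% to 14.2% for *Itgb7*.

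Among the linkers and fibronectin, *Fn1* and *Hspg2* fell, *Nid2* was called higher and *Nid1* was not called. *Fn1*, per kilobase the most abundant member in CTL tumors (mean 10613, and 4823 in knockdown tumors, against 8075 and 6341 for *Itgb1*), spanned 83913 to 159196 normalized counts in CTL tumors (median 120635) and 31846 to 92640 in knockdown tumors (median 52147). Only knockdown tumor 1 (92640) entered the CTL range, above CTL tumor 3 (83913), and the log2 fold change was -1.19 (SE 0.22, limma adjusted p = 7.25e-04). Without knockdown tumor 1 it was -1.34. The summed level of fibroblast markers was also highest in knockdown tumor 1 among the knockdown tumors, with 124920 to 214490 normalized counts in CTL tumors, 182376 in knockdown tumor 1 and 55359 to 117542 in the other knockdown tumors. Elsewhere the order of the sum was not that of *Fn1*. CTL tumor 3, the lowest CTL tumor for *Fn1*, had the highest sum of any tumor (214490). Knockdown tumor 4, above all knockdown tumors but 1 for *Fn1* (65920), had the lowest sum (55359). The largest parts of the sum were *Col1a1* and *Col1a2* (CTL means of 92521 and 74513). Of the 6 fibroblast markers 2 were called lower (*Col1a1* and *Col1a2*) and 0 higher. *Dcn* (log2 fold change 0.06), *Pdpn* (0.11), *Lum* (-0.56) and *Pdgfra* (-0.41) were not called. Without knockdown tumor 1, *Lum* (log2 fold change -1.04) and *Pdgfra* (-0.55) were called lower as well (limma adjusted p = 0.00119 and 0.0233). The part of fibroblast markers in the *Fn1* result was not tested.

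*Hspg2*, which encodes the heparan sulfate proteoglycan perlecan, fell from a CTL range of 11326 to 15327 normalized counts (median 12355) to 7669 to 11470 in knockdown tumors (median 9718). The ranges met only at CTL tumor 4 (11326) and knockdown tumors 1 and 3 (11470 and 11341), and the log2 fold change was -0.38 (SE 0.10, limma adjusted p = 0.00727). *Nid2* had 330 to 507 normalized counts in CTL tumors (median 457) and 464 to 751 in knockdown tumors (median 645), with a log2 fold change of 0.51 (SE 0.14, limma adjusted p = 0.00951). It lies on chromosome 14, where the median gene was higher by 0.388 on the log2 scale in knockdown tumors, and with chromosome medians removed its log2 fold change was 0.13 (limma adjusted p = 0.497), so the call was lost. *Nid1*, on chromosome 13, had medians of 5809 and 5112 normalized counts and was not called (log2 fold change -0.13, limma adjusted p = 0.249).

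The 4 subunits grouped here as laminin-binding (*Itga3*, *Itga6*, *Itga7* and *Itgb4*) were called, 3 higher and 1 lower. Over all genes, 21.1% were called higher and 20.7% lower. *Itgb1*, which also pairs with *Itga3*, is given with the other β subunits. *Itgb4*, the β subunit of hemidesmosomes, ranged from 11243 to 12802 normalized counts in CTL tumors (median 12029) and from 13085 to 20625 in knockdown tumors (median 17851). The groups did not overlap, knockdown tumor 1 being the lowest of its group, and the rise was 1.46-fold (log2 fold change 0.54, SE 0.09, limma adjusted p = 3.51e-04). *Itga6*, its α partner, rose by less, with a CTL range of 8623 to 10875 (median 10490.1) and a knockdown range of 10359 to 12872 (median 11585). Its log2 fold change of 0.20 (limma adjusted p = 0.0323) was lost after rescaling to the same total (adjusted p = 0.0622) and in 5 of the 12 leave-one-out fits. *Itga3*, the α subunit that pairs with *Itgb1* to bind the same epithelial laminin, was called lower with medians of 12628 and 9977 normalized counts (log2 fold change -0.24, limma adjusted p = 0.0457), and lost the call in 10 of the 12 leave-one-out fits. Per kilobase, *Itga6* stood at 0.518 ± 0.0245 of *Itga3* in CTL tumors and 0.704 ± 0.0857 in knockdown tumors, and *Itgb4* at 0.214 ± 0.0134 and 0.4005 ± 0.067 of *Itgb1* (SD over 6 tumors each).

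*Itga7*, the laminin receptor α subunit known from skeletal muscle, was per kilobase the least abundant of these 4 and rose the most. Its level was 71.0 to 115.5 normalized counts in CTL tumors (median 99.9) and 181 to 406 in knockdown tumors (median 258). No tumor of one group reached the other, at 2.90-fold (log2 fold change 1.54, SE 0.20, limma adjusted p = 3.04e-05). Skeletal muscle markers moved in the same direction, with 5 of 6 called higher and summed levels of 2051 to 11229 normalized counts in CTL tumors and 4688 to 80175 in knockdown tumors, and *Itga7* was highest in knockdown tumors 4 and 3, which also had the highest muscle sums. In knockdown tumors 2 and 6 the muscle sum (6740.2 and 4688) lay inside the CTL range, and *Itga7* stood at 181 and 241 normalized counts, above every CTL tumor. The part of muscle in the *Itga7* result was not tested.

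**Figure D4:**
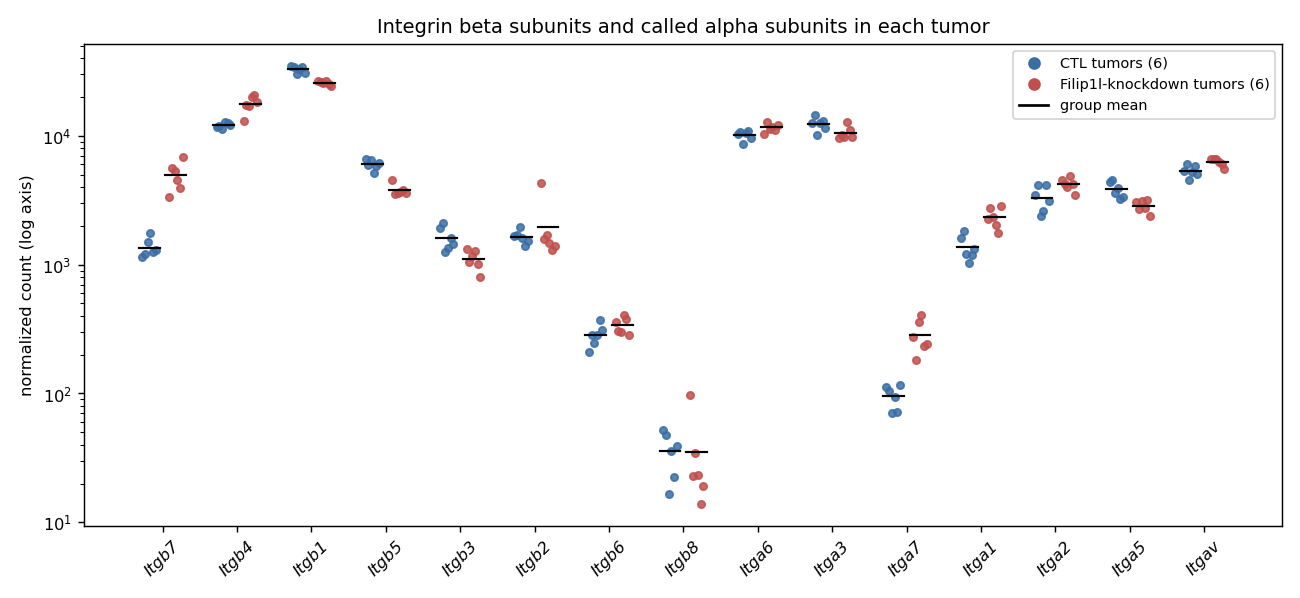
Normalized count (log axis) of the 8 integrin β subunits and the 7 integrin α subunits that were called, in each CTL tumor (blue) and each *Filip1l*-knockdown tumor (red), with a black line at the mean of each group of 6. *Itgb7*, *Itgb4* and *Itga7* lie higher and *Itgb1*, *Itgb5* and *Itga5* lower with no overlap, and knockdown tumor 1 stands out for *Itgb2* (4271).

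Of the β subunits outside leukocytes, *Itgb1*, *Itgb3* and *Itgb5* fell and *Itgb6* and *Itgb8* were not called. *Itgb5*, which pairs with *Itgav* to bind vitronectin, had 5162 to 6548 normalized counts in CTL tumors (median 5993) and 3531 to 4534 in knockdown tumors (median 3657). The groups did not overlap, and 5 of the 6 knockdown tumors lay within 3531 to 3788 while knockdown tumor 1 stood at 4534 (log2 fold change -0.66, SE 0.07, limma adjusted p = 7.65e-06). *Itgb1*, the shared β subunit of the largest integrin group, ran from 30271 to 34881 normalized counts in CTL tumors (median 33733) and from 24376 to 26845 in knockdown tumors (median 26048). These groups were separated too, with little spread within either (log2 fold change -0.35, SE 0.06, limma adjusted p = 2.58e-04). It lies on chromosome 8, where the median gene had a log2 difference of -0.187, and with chromosome medians removed its log2 fold change was -0.15 (limma adjusted p = 0.106), so that call was lost.

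*Itgb3*, the β subunit of platelet and angiogenic integrins, had a CTL range of 1262 to 2107 normalized counts (median 1538) and a *Filip1l*-knockdown range of 805 to 1315 (median 1101). Only its upper knockdown tumors, 1 and 4, reached into the CTL range (log2 fold change -0.55, SE 0.14, limma adjusted p = 0.00633). *Itgb6*, an epithelial subunit that activates latent TGF-β, had medians of 284 and 330.0 normalized counts and was not called (log2 fold change 0.26, limma adjusted p = 0.146). *Itgb8* was the least abundant β subunit per kilobase, at 3.21 ± 1.25 in CTL and 3.19 ± 2.84 in knockdown tumors (SD over 6 tumors each), and was highest in knockdown tumor 1 (97.8 normalized counts). Its log2 fold change was -0.22 with that tumor and -0.57 without it (limma adjusted p = 0.712 and 0.169).

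*Itgb7* showed the largest rise among the β subunits. This gene (chromosome 15, 102215995 to 102231944 on GRCm38) encodes the leukocyte subunit that pairs with the products of *Itga4* and *Itgae* and is known for homing to and retention in the gut. It had 1154 to 1747 normalized counts in CTL tumors (median 1276) and 3371 to 6877 in knockdown tumors (median 4918). Every knockdown tumor lay above every CTL tumor, at 3.58-fold (log2 fold change 1.84, SE 0.15, limma adjusted p = 7.76e-07), and without knockdown tumor 1, the lowest of its group, the log2 fold change was 1.94. Both α partners were near level: *Itga4* had medians of 371 and 346 normalized counts (log2 fold change 0.07, limma adjusted p = 0.822) and *Itgae* of 119 and 127 (log2 fold change 0.07, limma adjusted p = 0.879). Per kilobase, *Itgb7* stood at 490.2 ± 80.3 in CTL and 1785 ± 455 in knockdown tumors, against 24.8 ± 5.04 and 26.9 ± 9.72 for *Itga4* and 26.9 ± 10.3 and 28.6 ± 11.3 for *Itgae* (SD over 6 tumors each).

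The leukocyte marker lists beside *Itgb7* were mixed. Of the T cell markers 0 of 7 were called, and their sums overlapped (757 to 1992 normalized counts in CTL, 809 to 1642 in knockdown tumors). The only B cell marker measured, *Cd79b*, was called higher at a summed level of 11.4 to 29.9 in CTL and 27.4 to 62.9 in knockdown tumors. Neutrophil markers were called higher for 5 of 7 and macrophage markers for 2 of 8, and 0 of 6 dendritic cell markers were called. Without knockdown tumor 1, the neutrophil markers *Mmp9* (log2 fold change -0.96) and *Trem1* (-0.52) were called lower (limma adjusted p = 0.00265 and 0.0129). The macrophage marker *Cd68* then lost its call (limma adjusted p = 0.0742). Knockdown tumor 6 had the highest *Itgb7* (6877) with a T cell sum (1336) inside the CTL range, and also the highest sums of simple epithelial (352179) and intestinal (95923) markers. Knockdown tumor 5 came next for both epithelial sums (346873 and 89979), but its *Itgb7* (3952) was the lowest of its group after knockdown tumor 1. The source of the *Itgb7* reads was not tested. On the per-kilobase scale *Itgb7* made up 3.11% to 4.92% of all β subunits in CTL tumors and 9.67% to 19.5% in knockdown tumors, *Itgb4* went from a mean of 13.4% to 20.1%, *Itgb1* from 62.9% to 50.3% and *Itgb5* from 13.2% to 8.48%. Without a correction for length the difference in share was 6.42 rather than 10.3 percentage points for *Itgb7*, and 10.2 rather than 6.67 for *Itgb4*.

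Both widely used collagen receptors rose. *Itga1*, which prefers type IV collagen, had 1024 to 1828 normalized counts in CTL tumors (median 1265) and 1761 to 2838 in knockdown tumors (median 2308). Its ranges met only at CTL tumor 2 (1828) and knockdown tumor 5 (1761), with a 1.72-fold rise (log2 fold change 0.78, SE 0.15, limma adjusted p = 6.15e-04). *Itga2*, the subunit for fibrillar collagen on epithelium and platelets, had a CTL range of 2396 to 4186 (median 3295) and a knockdown range of 3457 to 4834 (median 4235). Its call (log2 fold change 0.37, limma adjusted p = 0.0384) was lost in 9 of the 12 leave-one-out fits and after rescaling to the same total (adjusted p = 0.0803). Both genes lie side by side on chromosome 13, *Itga2* from 114833081 to 114932100 and *Itga1* from 114953096 to 115101964. *Itga10* and *Itga11*, collagen receptors of cartilage and of fibroblasts, had knockdown medians of 26.9 and 279 normalized counts and were not called. *Itga10* shares 33.5% of its exon bases with *Gm42957*, so its reads are uncertain.

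Among the α subunits of the RGD group and its relatives, *Itga5* fell, *Itgav* was called higher and 4 were not called. *Itga5*, the α subunit of the main fibronectin receptor, had 3209 to 4538 normalized counts in CTL tumors (median 3787) and 2365 to 3159 in knockdown tumors (median 2919). The groups did not overlap, though CTL tumor 5 (3209) and knockdown tumor 5 (3159) came close (log2 fold change -0.42, SE 0.10, limma adjusted p = 0.00343). *Itga5* thus had the same sign as its partner *Itgb1* (-0.35) and its ligand *Fn1* (-1.19). *Itgav*, the partner of *Itgb3*, *Itgb5*, *Itgb6* and *Itgb8*, had medians of 5258 and 6441 normalized counts and an opposite sign to *Itgb3* and *Itgb5* (log2 fold change 0.24, SE 0.07, limma adjusted p = 0.0183), and it lost its call after rescaling to the same total (0.20, adjusted p = 0.0634). *Itga4*, *Itga8*, *Itga9* and *Itga2b* were not called, with adjusted p from 0.479 (*Itga2b*) to 0.962 (*Itga8*). *Itga9* was highest in knockdown tumor 1 (771 normalized counts). Its log2 fold change was -0.13 with that tumor and -0.31 without it (limma adjusted p = 0.655 and 0.07).

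Of the 6 leukocyte subunits only *Itgb7* was called. *Itgb2*, the shared β subunit of the other leukocyte integrins, had 1406 to 1943 normalized counts in CTL tumors (median 1643) and 1290 to 4271 in knockdown tumors (median 1531). Its highest value came from knockdown tumor 1, and the other knockdown tumors lay between 1290 and 1691. The α partners of *Itgb2* had the same shape, with knockdown tumor 1 at 1135 normalized counts for *Itgal* (T cells and other leukocytes), 993 for *Itgam* (myeloid cells) and 2511 for *Itgax* (dendritic cells and macrophages), the highest of all 12 tumors in each case. Their log2 fold changes were 0.11 for *Itgb2*, -0.07 for *Itgal*, 0.31 for *Itgam* and 0.07 for *Itgax* (limma adjusted p = 0.738, 0.821, 0.236 and 0.814), and without knockdown tumor 1 they were -0.14 for *Itgb2*, -0.25 for *Itgal*, 0.12 for *Itgam* and -0.14 for *Itgax*. *Itgam* shares 68.7% of its exon bases with the readthrough gene *Gm49368*, so its value is uncertain. In the heat map, these genes set the column of knockdown tumor 1 apart.

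**Figure D5:**
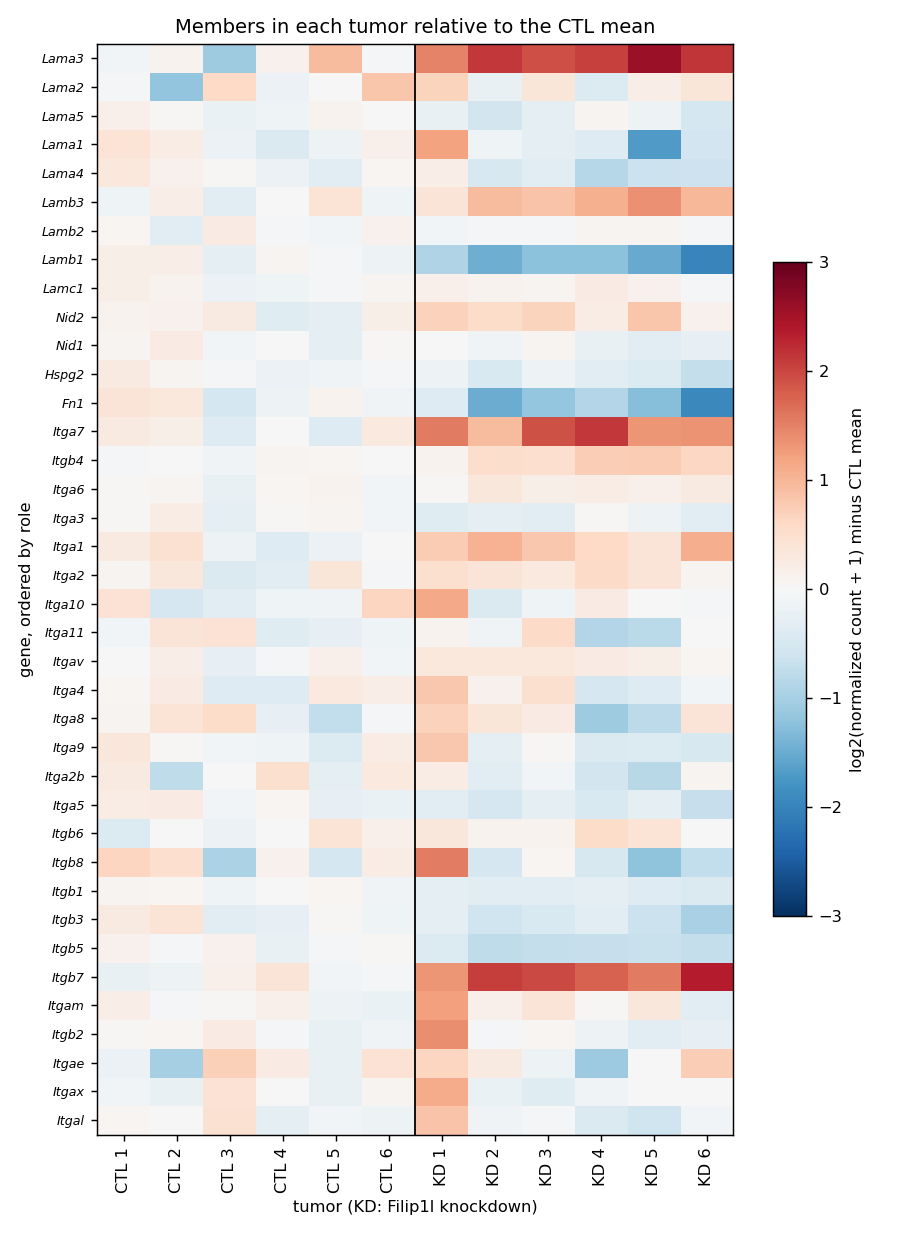
Heat map of log2(normalized count + 1) minus the CTL mean for the members described in the text (rows, ordered by role) in each of the 12 tumors (columns, CTL left of the black line and *Filip1l*-knockdown, KD, right of it), with red for higher and blue for lower. *Lama3* and *Itgb7* are red and *Lamb1* blue in all 6 knockdown tumors, whereas *Itgb2*, *Itgam*, *Itgax* and *Itgal* are most strongly red in knockdown tumor 1.

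Other genes of the adhesion machinery were read from 5 lists. The counts called in each list stand beside shares over all genes of 21.1% higher and 20.7% lower. Of 27 integrin activators and adaptors, 8 were called higher and 10 lower, with a median log2 fold change of -0.03. The largest falls were in the tensins *Tns1* (6783 ± 749.7 normalized counts in CTL and 2946 ± 431 in knockdown tumors, SD over 6 tumors each, log2 fold change -1.21) and *Tns4* (-1.09), which bind the tails of β subunits, and in the adaptor *Parvb* (-0.96, limma adjusted p = 3.81e-05). Leaving out genes whose mean was under 50, the largest rises were in *Lims2*, an adaptor of the ILK complex (54.3 ± 13.7 and 184 ± 62.8 normalized counts, log2 fold change 1.71, limma adjusted p = 4.97e-05), the epithelial kindlin *Fermt1* (0.28) and *Sharpin* (0.27), an inhibitor of integrin activation. The core activator talin, *Tln1*, was lower by 0.29 on the log2 scale (limma adjusted p = 3.86e-04) and is named here after its value was seen.

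Partners of the *Itgb4* integrin in the hemidesmosome were not among the genes called higher. Of 5 genes, 0 were called higher and 2 lower, *Col7a1*, the anchoring fibril collagen (1341 to 4451 normalized counts in CTL, 481 to 1322 in knockdown tumors, log2 fold change -1.59, limma adjusted p = 4.99e-04), and *Dst*, a plakin (-0.52, adjusted p = 0.0067). *Col17a1*, *Plec* and *Cd151* were not called. Of 18 other basement membrane genes measured, 6 were called lower and 1 higher, with a median log2 fold change of -0.22. The largest falls were *Frem1* (-1.46), the netrin *Ntn4* (1216 ± 61.4 and 478 ± 135 normalized counts, SD over 6 tumors each, log2 fold change -1.39, limma adjusted p = 3.22e-06) and *Npnt*, which encodes nephronectin (-0.84, adjusted p = 3.59e-06). *Col4a3*, at means of 8.98 and 20.6 normalized counts, was the gene called higher and is named after its value was seen, as are the main type IV collagen genes *Col4a1* and *Col4a2*, which had log2 fold changes of -0.17 and 0.09 and were not called. Both lie on chromosome 8. With chromosome medians removed, *Col4a2* was called higher and *Col4a1* was still not called (limma adjusted p = 0.0358 and 0.875).

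Ligands of the integrins outside the laminin network moved in both directions. Of 19 measured, 9 were called lower and 4 higher, with a median log2 fold change of -0.47. Osteopontin, *Spp1*, a ligand of αv integrins, fell from 147026 to 198574 normalized counts in CTL tumors to 48852 to 82063 in knockdown tumors (log2 fold change -1.34, limma adjusted p = 2.57e-06). *Tnn* (-1.66), *Edil3* (-1.43), *Ltbp1* (-1.21) and the tenascin *Tnc* (-1.19) were the other falls past a log2 fold change of 1. *Ccn3*, a matricellular protein, rose by 2.02 on the log2 scale (limma adjusted p = 0.00177), and the leukocyte ligands *Icam1* (0.58) and *Vcam1* (0.28) rose by less, with *Mfge8* (0.20) the last of those called higher. Of 10 laminin and matrix receptors that are not integrins, 0 were higher and 3 lower, the syndecans *Sdc2* (1562 ± 103 and 541 ± 210 normalized counts, SD over 6 tumors each, log2 fold change -1.60, limma adjusted p = 6.42e-06) and *Sdc4* (-0.34), and *Rpsa* (-0.24), while dystroglycan, *Dag1*, and the Lutheran glycoprotein *Bcam* were not called (log2 fold changes -0.03 and 0.13). Without knockdown tumor 1, *Bcam* and the syndecan *Sdc1* were called higher (limma adjusted p = 0.0337 and 0.039) and the call of *Rpsa* was lost (limma adjusted p = 0.0763).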

How the data were processed

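RNA of 12 snap-frozen tumors was sequenced by the authors after poly(A) selection, and the strand setting of the counting is not given in the sources used here. Per the labels and methods, reads were processed with bcl2fastq 2.20, Trimmomatic 0.36, STAR 2.5.2b and featureCounts of Subread 1.5.2, and mm10 is the build named in the submitters' processing notes. The authors divided the counts by DESeq2 size factors before they deposited them, so the unit is a normalized signal (normalized count) that is not corrected for gene length. Per-kilobase levels used merged exon lengths of GENCODE vM21 on GRCm38.

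The labels gave a group for all 12 columns. Values were tested as log2 of the value plus 1 with limma 3.58.1 (R 4.3.3, variance trend, Benjamini-Hochberg adjustment over 15687 genes), and the step was tested on simulated data. A filter at a mean of 5 removed 0 genes, since the lowest mean was 9.28, so the alternative with no minimum mean repeats the main fit. Division by the smallest step in each tumor gave whole reads (100% of values within 0.01 of a read), and edgeR 4.0.16 was run on these reads as an alternative chosen after seeing the data, as were other lengths for the shares of chains. The count test called 6626 genes and limma 6566. Other alternatives were removal of chromosome medians, a block for replicate number, limma with no variance trend, scaling to an equal total or an equal 75th percentile, a pseudocount of 0.5 or 8, a minimum mean of 20 or none, and leaving out each tumor. No tumors of one group were duplicates, since counts of the closest (CTL 1 and 2) differed by a chi-square of 9.42 per degree of freedom. The sources do not state that each tumor came from its own mouse, so p-values measure the spread between these tumors. Each group also grew from its own transduced and selected cells. A difference between these cell populations therefore cannot be told apart from the knockdown. The median gene differed between the groups by 0.388 on chromosome 14, -0.352 on chromosome 19 and -0.187 on chromosome 8 (log2, knockdown minus CTL).

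The members and lists were chosen with earlier results of these data known. Any member could be named. Of each pathway list, the plan was to name at most 3 called genes with the largest rise and 3 with the largest fall at a mean of at least 50. Besides the exceptions stated above, the integrin ligands went past this plan. There, every gene called higher and every gene called lower past a log2 fold change of 1 was named. *Dag1*, *Bcam*, *Sdc1*, *Col17a1*, *Plec* and *Cd151*, not called in the main fit, were named outside the plan too. Marker lists of Schwann cells (2 of 3 called higher), smooth muscle and pericytes (1 of 5 higher, 1 lower), platelets (1 of 4 higher), endothelium (5 of 7 higher) and lung epithelium (2 of 5 higher, 1 lower) were also read. Motifs were searched in 250 bases upstream of RefSeq starts on GRCm38.p6. Figures were drawn with matplotlib 3.10.9. Values of 1 member are not reported here, and the counts over members include it.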

Additional observations from a re-analysis of the deposited data

Results flagged for a closer look

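In 4 of the 80 groups of 6 tumors examined (the 39 members and *Filip1l* in either group), 1 tumor lay further from its group than Dixon's 95% criterion for 6 values allows, and about 1 group in 20 is expected to do so by chance. All 4 are high values of knockdown tumor 1. *Itgb2* was at 4271 normalized counts there (other knockdown tumors 1290 to 1691), *Itgax* at 2511 (910 to 1176), *Itgal* at 1135 (414 to 599) and *Itgb5* at 4534 (3531 to 3788). That tumor also had the highest sums of macrophage (29736) and neutrophil (3219) markers of the 12 tumors, and their part in these values was not tested.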

How the results depend on the processing

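The counts of members called, 11 higher and 10 lower, lay within 8 to 11 and 8 to 10 under the alternatives that kept all tumors, the lowest being 8 higher after rescaling to the same total and 8 lower without a variance trend, and 6 members passed both thresholds under each of these. Leaving out 1 tumor gave 9 to 11 higher, 7 to 10 lower and 5 to 7 past both thresholds, and the calls over the 5 pathway lists, 43 in all, numbered 40 to 44 under the alternatives that kept all tumors. The calls that were lost under some setting are those of *Itga2*, *Itga3*, *Itga6*, *Itgav*, *Itgb1*, *Lama4*, *Lama5* and *Nid2*. Their values are given beside each gene for the settings that matter, and the cause was not tested. Replicate numbers did not pair the tumors: correlations of deviations between tumors that share a number ran from -0.269 to 0.099. No CTL tumor correlated best with the knockdown tumor of its own number. With the replicate block, 11 members were called higher and 9 lower, *Lama5* being the member lost (log2 fold change -0.28, limma adjusted p = 0.0639), and 5905 genes were called instead of 6566. The sign turned only for members that were not called. When each tumor was left out in turn, their log2 fold changes ranged from -0.073 to 0.258 for *Itga10*, from -0.077 to 0.186 for *Itga4*, from -0.17 to 0.182 for *Itga8*, from -0.127 to 0.305 for *Itgae*, from -0.253 to 0.038 for *Itgal*, from -0.136 to 0.156 for *Itgax*, from -0.144 to 0.201 for *Itgb2*, from -0.075 to 0.326 for *Lama2* and from -0.084 to 0.0303 for *Lamb2*, and *Itga8* had 0.028 with edgeR on whole reads. *Itga10*, *Itga2b*, *Itga8* and *Itgb8*, with means under 50 normalized counts, had standard errors of 0.25 to 0.42 on the log2 scale, and *Lama1* and *Itgae*, with higher means, had 0.35 and 0.32. No change was detectable for these 6 at this spread, and the part of depth in it was not tested.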
